A study of Mus musculus with 7 samples.

Results

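The enzymes and carriers of glycolysis and of the pentose phosphate pathway were examined in the mammary gland through 35 genes taken by name. A probe belonged to them when it was not a control spot and its gene name was 1 of the 35, which gave 83 of the 56605 probes on the array. Of these 83 probes, 74 were tested, because in at least 1 genotype all arrays had a gland signal well above background, as did 34288 of all probes. Of the 35 genes, 34 were tested, out of 22503 gene names. The exception was Pklr, the pyruvate kinase of liver and red blood cells, whose single probe was not well above background on any of the 7 arrays in either channel.

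Gland RNA came from nulliparous adult FVB females of 20 to 25 weeks, taken in diestrus, with 3 wild-type and 4 PRA transgenic animals and 1 animal per array. PRA transgenics carry an additional A form of the progesterone receptor through a pair of transgenes: the cytomegalovirus promoter, which is not limited to the epithelium, drives the GAL-4 transactivator, and GAL-4 acts on a UAS-linked receptor. Their glands were labelled preneoplastic, and those of the wild-type normal. From each animal a whole abdominal gland was used after its lymph nodes had been cut out, so that fewer cells of a type and less RNA per cell cannot be told apart. Gland RNA was labelled with Cy5 and hybridized beside Cy3-labelled Universal Mouse Reference RNA, a pool from 11 mouse cell lines, so each value is the log2 ratio of the gland to that pool. The study compared gene expression between the genotypes, and the same contrast is given here for these genes.

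Glycolysis splits glucose into pyruvate, which lactate dehydrogenase can turn into lactate, and many of its steps have several isoenzymes that are used in different tissues. The pentose phosphate pathway branches off at glucose 6-phosphate: its oxidative arm yields NADPH, which fat synthesis consumes, and its non-oxidative arm makes ribose 5-phosphate and returns carbon to glycolysis. In a mammary gland outside pregnancy most of the tissue is fat, and in lactation the epithelium is a heavy user of glucose.

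A single slide carried the 7 arrays, with wild-type glands in its row 1 and PRA transgenics in row 2, so row and genotype cannot be told apart. Between 62.7% and 66.2% of all probes were well above background in Cy5 on wild-type arrays and between 56.7% and 60.2% on PRA arrays. In Cy3, the same reference throughout, the ranges were 53.2% to 54% and 47.2% to 50.6%. All 12 luminal, all 8 basal and all 12 white adipocyte markers passed the filter, with list means 2.62 to 6.15 above the reference on every array. Skeletal muscle markers set 3 arrays apart. Of 21 muscle genes 18 were tested (Ckm, Neb and Mybpc2 were not), and their mean log2 ratio was 1.73, -0.20 and 2.70 in wild-type replicates 1 to 3 and -0.05, -0.19, -0.14 and 2.57 in PRA replicates 1 to 4. PRA replicate 4 also stood apart in the sugar genes, so counts are given with and without it. Lymphocyte markers set wild-type replicate 1 apart. The mean of 7 tested T cell markers was 2.05 on that array and between -0.25 and 0.41 on the others. For 5 tested B cell markers it was 0.76 there and between -1.075 and -0.43 on the others. The part of these cells in the sugar genes was not tested.

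Over the 34 genes the difference between the genotypes was small against the spread between animals. None had a Benjamini-Hochberg adjusted limma p under 0.05 (lowest adjusted p = 0.405, for Rpia), where 0.00444% of all genes did. At an unadjusted p under 0.05, 2 of 34 passed (Rpia and Slc2a1, 5.88%), against 7.95% of all genes. Only Rpia also passed 1.5-fold, so 2.94% of the 34 were called against 4.06% of all genes, and none was called lower, against 2.55%. Rpia was the 1 called higher, against 1.52%. Rpia was also the only gene of the 34 whose genotypes did not overlap, while 9.11% of all genes did not overlap. The log2 fold change of PRA over wild-type was above 0 for 23 of 34 (67.6%), against 52.7% of all genes, and its median was 0.14 against 0.01. These shares for the 34 are descriptions without a test. The wild-type to PRA change in the Cy3 channel ranged from -0.32 (Tkt) to 0.19 (Slc2a4) over the 34 brightest probes, with a median absolute size of 0.04.

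**Figure D1:**
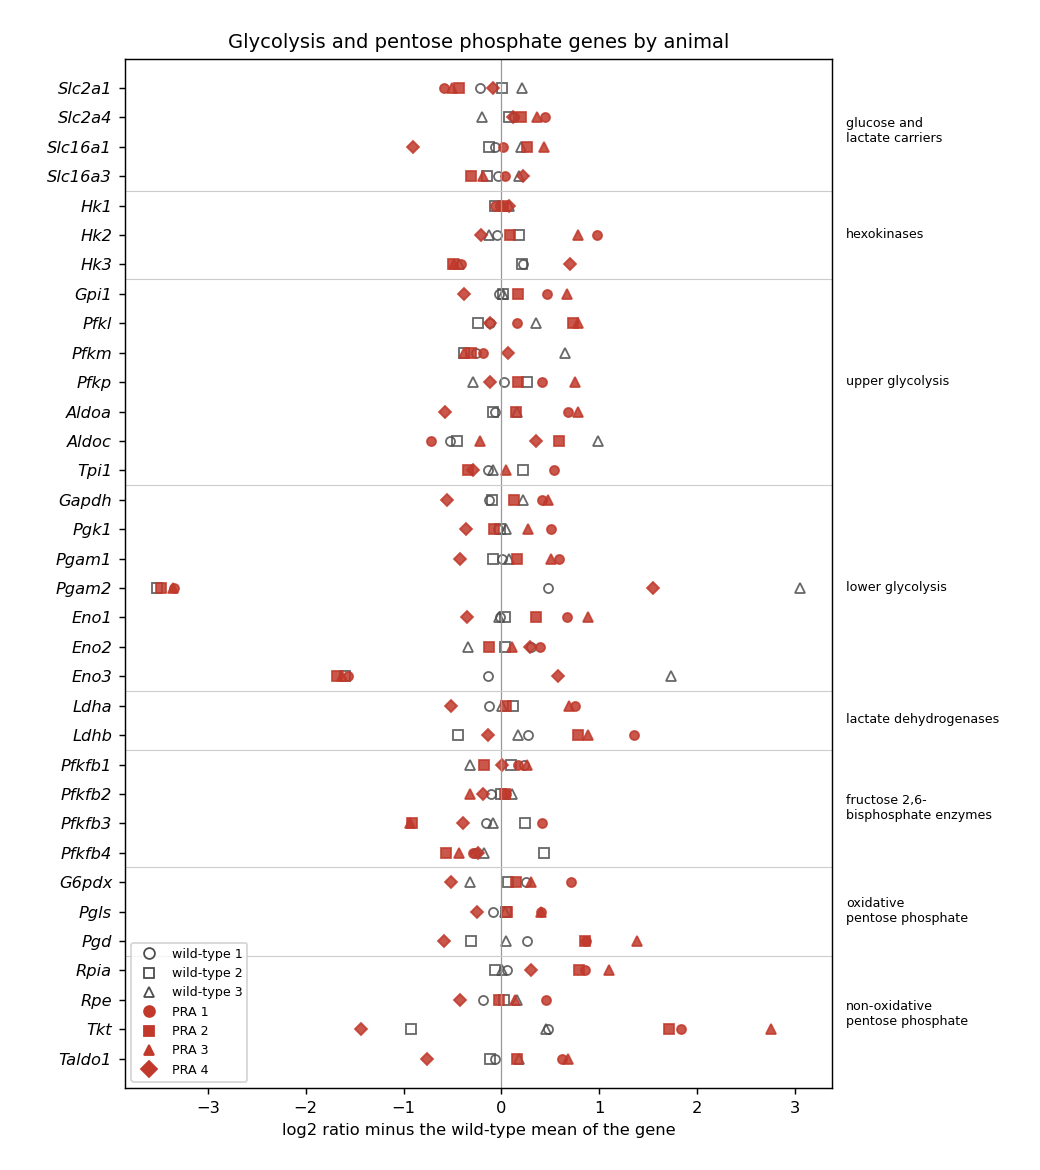
Log2 ratio of each of the 34 genes on each array minus the wild-type mean of that gene, by its brightest probe and grouped by role; open grey symbols are the 3 wild-type and filled red symbols the 4 PRA arrays, without error bars. Rpia is the gene whose 4 red points all lie right of its grey ones, PRA replicate 4 (diamond) lies at the left for most of the pentose phosphate genes, and Pgam2, Tkt and Eno3 spread the most.

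Rpia, ribose 5-phosphate isomerase, makes ribose 5-phosphate for nucleotide synthesis in the non-oxidative arm. Its brightest probe read 0.27, 0.15 and 0.22 in the wild-type glands and 1.07, 1.01, 1.32 and 0.51 in the PRA glands. Every PRA gland lay above every wild-type gland, with PRA replicate 4 the nearest to them. Wild-type glands averaged 0.21 ± 0.06 (SD, n = 3) and PRA glands 0.97 ± 0.34 (SD, n = 4), a fold of 1.70, or 0.76 on the log2 scale with a standard error of 0.19. That passed the 1.5-fold threshold at an unadjusted p under 0.05 but not the limma test after Benjamini-Hochberg adjustment, with an adjusted p = 0.405.

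The second Rpia probe gave the same picture from another place in the gene. It read -0.78, -0.84 and -0.76 in wild-type and 0.06, -0.07, 0.27 and -0.30 in PRA glands, again without overlap. The difference was 0.78 on the log2 scale with a standard error of 0.15, and limma gave a Benjamini-Hochberg adjusted p = 0.330. The probes lie on chromosome 6 of mm9, the brighter at chr6:70716013-70716072 and the other at chr6:70732230-70732289, both on the minus strand, and their place among exons was not examined, since no gene models of mm9 were used here. Their first 30 of 60 bases are shown because these are the oligos that measured the one gene called here:
A_66_P109395: tcattgttaccactcccaaatcttagttac
A_55_P2716236: catctcatgatcccagccccttaattctta
The runs come from separate positions, so the agreement in size is between oligos, while the 7 RNA samples are shared. In Cy5 alone the probes were higher by 0.79 and 0.75, and in Cy3 the changes were 0.04 and -0.02. The log2 fold change of the brighter probe lay between 0.65 and 0.92 with any 1 array left out, with an adjusted limma p from 0.192 to 0.689.

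Tkt encodes transketolase, the enzyme that moves carbon between the pentose phosphates and glycolysis. Its brightest probe read 2.43, 1.03 and 2.41 in wild-type and 3.80, 3.67, 4.72 and 0.52 in PRA glands. PRA replicates 1 to 3 lay above all wild-type glands, and PRA replicate 4 lay below all of them. The log2 fold change of 1.22 was the largest upward value among the 34, but its standard error was 0.96 and its adjusted p = 0.762 from limma. In Cy5 alone this probe was higher by 0.89 in PRA glands, and in Cy3 it changed by -0.32. The spread within the PRA group was 18.3-fold. The log2 fold change rested on single arrays: it was 2.10 without PRA replicate 4 (limma adjusted p = 0.278), 0.70 without PRA replicate 3 (adjusted p = 0.969) and 0.75 without wild-type replicate 2 (adjusted p = 0.901).

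A dimmer Tkt probe went the opposite way, with a log2 fold change of -0.60 and no overlap (adjusted p = 0.463 from limma). Its Cy5 signal was well above background on all 3 wild-type and on 2 of the 4 PRA arrays, and its Cy3 reference on none. In Cy5 alone it was higher by 0.30 in PRA glands, and in Cy3 by 0.91. With the median over the tested Tkt probes, the log2 fold change was 0.31 (limma adjusted p = 0.916). The oligos differ in place, chromosome 14 of mm9 on the plus strand at chr14:31386641-31386700 for the brighter and chr14:31361653-31361712 for the dimmer, and their first 30 bases are given because they disagree:
A_51_P394515: cggtattgacaaggacgccattgtgcaagc
A_66_P121998: tcctctctgtaaattgcaacaacctccgcc

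Taldo1, transaldolase, and Rpe, ribulose phosphate epimerase, complete the non-oxidative arm. Taldo1 differed by 0.17 on the log2 scale and Rpe by 0.04, both within the spread between animals. For Taldo1 the wild-type range was 2.02 to 2.32 and the PRA range 1.38 to 2.81. For Rpe they were 0.71 to 1.06 and 0.48 to 1.35.

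In the oxidative arm, G6pdx (the first, NADPH-yielding step), Pgls (the lactonase that follows) and Pgd (6-phosphogluconate dehydrogenase, the second NADPH-yielding step) were all nominally higher. Pgd read 1.60, 1.03 and 1.39 in wild-type and 2.20, 2.20, 2.73 and 0.76 in PRA glands. As for Tkt, 3 PRA glands lay above the wild-type and PRA replicate 4 below it. The Pgd log2 fold change was 0.63 with a standard error of 0.44, and it was 1.03 without PRA replicate 4 and 0.38 without PRA replicate 3 (limma adjusted p = 0.271 and 0.953). For G6pdx the log2 fold change was 0.16, from 1.09 to 1.67 in wild-type and 0.90 to 2.12 in PRA glands. For Pgls it was 0.15, from 0.53 to 0.67 and 0.38 to 1.03. All 7 pentose phosphate genes were below their own 7-array mean on PRA replicate 4, and none was on PRA replicates 1 and 3. On wild-type replicates 1 to 3 it was 6, 6 and 5 of the 7, and on PRA replicate 2 it was 2.

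Tkt and Pgd ordered the 7 arrays alike, from PRA replicate 3 through PRA 1, PRA 2, wild-type 1, wild-type 3 and wild-type 2 to PRA 4. A list of 11 fatty acid synthesis genes, picked after these values had been seen and therefore not tested, had the same order in its mean log2 ratio. The mean was 4.00, 3.05 and 3.68 in wild-type replicates 1 to 3 and 4.69, 4.49, 5.05 and 2.53 in PRA replicates 1 to 4. Single genes of this list differed: 10 were higher in PRA glands, and Scd1 was lower at a log2 fold change of -0.09. Srebf1, Thrsp and Pnpla3 were not lowest on PRA replicate 4, while the other genes of the list were. The mean of the 12 white adipocyte markers ran from 5.47 to 5.86 in wild-type and from 5.45 to 6.15 in PRA glands, with PRA replicate 4 at 5.76, inside the range of the others. The mean of 7 red blood cell markers came close to the order of Tkt and Pgd, with only its lowest arrays exchanged. It was 4.55, 4.09 and 4.49 in wild-type and 4.67, 4.55, 4.82 and 4.42 in PRA glands. For 3 of the 7 markers the genotypes did not overlap, against 9.11% of all genes. Of the 7 markers, 5 were higher in PRA glands and 2 lower. The part of any of these lists in the values of Tkt and Pgd was not tested.

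**Figure D2:**
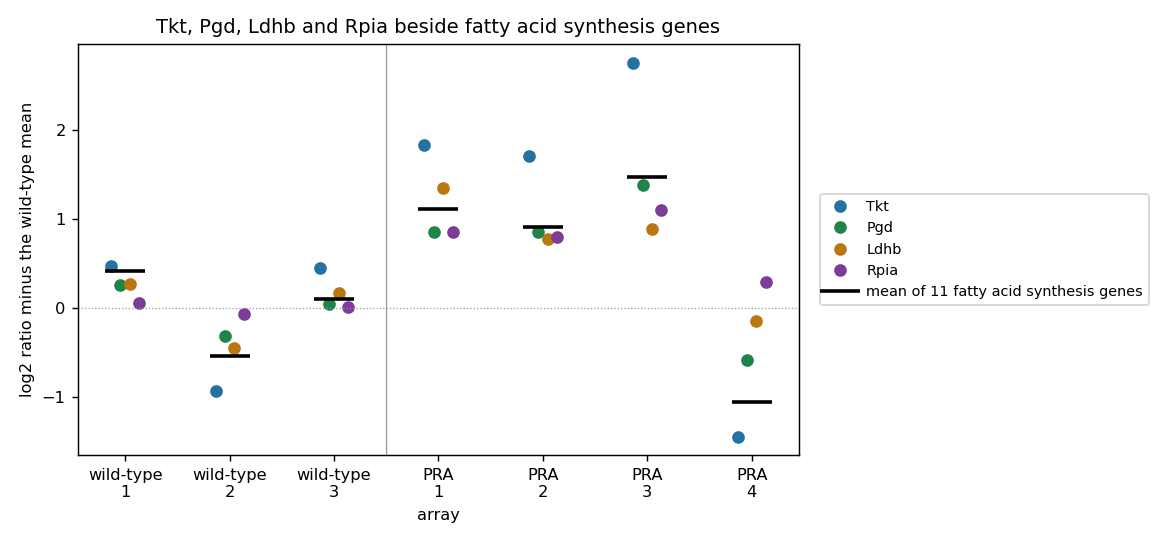
Log2 ratio minus the wild-type mean on each array for Tkt, Pgd, Ldhb and Rpia (points) and for the mean of 11 fatty acid synthesis genes chosen later (black bars, not error bars). PRA replicates 1 to 3 sit above the wild-type arrays for all 4 genes and for the bars, and on PRA replicate 4 Tkt, Pgd and the bars sit below every wild-type array while Rpia stays above them.

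Lactate dehydrogenase has a B subunit, typical of oxidative tissues, and an A subunit, typical of glycolytic ones. Ldhb read 1.64, 0.92 and 1.54 in wild-type and 2.72, 2.15, 2.26 and 1.23 in PRA glands. PRA replicates 1 to 3 lay above all wild-type glands and PRA replicate 4 between them. The log2 fold change was 0.72 with a standard error of 0.36 (limma adjusted p = 0.610), and the second Ldhb probe gave 0.65. For Ldha it was 0.24, with PRA values from -0.83 to 0.43 around the wild-type range of -0.45 to -0.20, and the second Ldha probe gave 0.60 (standard error 0.29, limma adjusted p = 0.599), close to the Ldhb values. By the brightest probes, the within-array difference of Ldhb and Ldha was 0.48 larger in PRA glands (two-sided exact permutation test, p = 0.171, adjusted over 9 isoenzyme pairs 0.514).

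Glucose enters cells through Slc2a1 (GLUT1), the widespread basal carrier, and Slc2a4 (GLUT4), the insulin-responsive carrier of fat and muscle. Slc2a1 read -3.20, -2.97 and -2.78 in wild-type and -3.57, -3.42, -3.49 and -3.07 in PRA glands. PRA replicate 4 fell within the wild-type range and the other PRA glands below it. The log2 fold change was -0.41 with a standard error of 0.17 (limma adjusted p = 0.542), and without PRA replicate 4 it was -0.51 (adjusted p = 0.319), so 0.05 was passed without adjustment only. With wild-type replicate 2 or 3 or PRA replicate 1, 2 or 3 left out it was not passed without adjustment either, at log2 fold changes from -0.40 to -0.30. In wild-type glands Slc2a4 was 6.65 ± 0.18 above the reference (SD, n = 3), and in PRA glands 6.93 ± 0.15 (SD, n = 4), a log2 fold change of 0.28 with ranges of 6.45 to 6.78 and 6.77 to 7.09. The difference between Slc2a4 and Slc2a1 within an array was 0.69 larger in PRA glands, which gave the lowest exact permutation p of the 9 pairs, 0.0857 (two-sided, adjusted 0.514). The smallest p that 3 arrays against 4 can give is 0.0286, and none of the 9 pairs passed 0.05.

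The lactate and pyruvate carriers Slc16a1 (MCT1) and Slc16a3 (MCT4) differed by -0.05 and -0.06. Slc16a3 ran from -3.38 to -3.06 in wild-type and from -3.55 to -3.02 in PRA glands. On PRA replicate 4 Slc16a1 was at -1.57, against -0.79 to -0.23 elsewhere.

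Hexokinases trap glucose as glucose 6-phosphate. Hk1, the housekeeping form, had by its brightest probe the narrowest range of all 34 genes, 1.11-fold over the 7 arrays, and a log2 fold change of 0.01. Its other tested probes ranged 1.59-, 2.11- and 3.54-fold, with a Cy3 reference well above background on 7, 1 and 3 arrays. Hk2, the insulin-responsive form of fat and muscle, ran from 0.11 to 0.42 in wild-type and from 0.04 to 1.22 in PRA glands, with a log2 fold change of 0.41. Hk3, a form found mostly in myeloid cells, had a log2 fold change of -0.18 and read -0.16, -0.17 and -0.82 in wild-type glands. It was at 0.31 on PRA replicate 4 and between -0.88 and -0.80 on the other PRA arrays. The mean of the 8 macrophage markers was 2.82 on that array, against 1.97 to 2.30 on the others, and its part in the Hk3 value was not tested.

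The middle and lower steps of glycolysis, which take glucose 6-phosphate to pyruvate, moved little on average. Gpi1 (the isomerase) differed by 0.23 and the phosphofructokinase genes Pfkl and Pfkp by 0.39 and 0.30. Pfkl ran from -1.85 to -1.26 in wild-type and from -1.74 to -0.84 in PRA glands, and Pfkp from -1.70 to -1.14 and from -1.52 to -0.65. In each of these genes the genotypes overlapped. Over the tested probes, the log2 fold change ran from 0.23 to 0.43 for Gpi1 (4 probes). It ran from -0.05 to 0.39 for Pfkl (2 probes) and from -0.004 to 0.91 for Pfkp (5 probes). The triose phosphate isomerase Tpi1 was at -0.01, with -1.13 to -0.76 in wild-type and -1.33 to -0.45 in PRA glands. The brain aldolase Aldoc was at 0.00, with 0.13 to 1.64 and -0.06 to 1.25. Gapdh, often taken as a constant gene, had a log2 fold change of 0.12 by its brightest probe and 0.12 to 0.49 over its 7 tested probes, all above 0. It ran from -1.21 to -0.87 in wild-type and from -1.64 to -0.61 in PRA glands. Phosphoglycerate kinase Pgk1 was at 0.08, with -2.21 to -2.12 in wild-type and -2.54 to -1.67 in PRA glands. Phosphoglycerate mutase Pgam1 was at 0.21, with -2.12 to -1.95 and -2.45 to -1.45. For Pgk1 and Pgam1 the PRA range enclosed the wild-type range. Among enolases, Eno1 was higher by 0.39 (standard error 0.28) and the neuronal Eno2 by 0.17 (-2.17 to -1.53 in wild-type, -1.96 to -1.43 in PRA glands), and neither passed a threshold. The other Eno1 probes gave 0.80 (standard error 0.40, limma adjusted p = 0.611) and 0.17.

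For Gpi1 the wild-type glands lay within -0.74 to -0.70 and the PRA glands within -1.09 to -0.05. For Eno1 the ranges were -0.50 to -0.43 and -0.83 to 0.42. In both genes the wild-type spread was narrow, and PRA replicate 4 lay under it while the other PRA glands lay above it.

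A muscle set of isoenzymes behaved differently. Pgam2, the muscle phosphoglycerate mutase, read -0.21, -4.20 and 2.37 in wild-type and -4.03, -4.16, -4.03 and 0.87 in PRA glands, a 95.1-fold range and the widest of the 34. Eno3, the muscle enolase, read -1.39, -2.86 and 0.48 in wild-type and -2.83, -2.93, -2.88 and -0.67 in PRA glands. Both genes were high on wild-type replicates 1 and 3 and on PRA replicate 4, the 3 arrays on which the muscle marker list was high. The log2 fold changes were -2.16 (standard error 1.81) for Pgam2 and -1.07 (standard error 0.87) for Eno3, and neither passed the limma test (adjusted p = 0.773 and 0.766). These values rested on single arrays. Pgam2 was at -0.63 without wild-type replicate 3, -3.92 without wild-type replicate 2 and -3.40 without PRA replicate 4. Eno3 was at -0.21, -1.87 and -1.63 without the same arrays. With the muscle marker mean as a covariate they were -0.42 and -0.26.

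Pfkm, the muscle phosphofructokinase, was highest on wild-type replicate 3 and PRA replicate 4 but not raised on wild-type replicate 1, at -1.16, -1.28 and -0.25 in wild-type and -1.09, -1.20, -1.28 and -0.83 in PRA glands. Its log2 fold change of -0.20 was -0.33 and -0.39 without wild-type replicates 1 and 2 and turned to 0.12 without wild-type replicate 3. Aldoa, the aldolase of muscle and most other tissues, read 0.28, 0.27 and 0.51 in wild-type and 1.03, 0.51, 1.14 and -0.23 in PRA glands. It was lowest where Pgam2 was high among the PRA glands, and its log2 fold change of 0.26 was 0.54 without PRA replicate 4, 0.12 without PRA replicate 1 and 0.08 without PRA replicate 3.

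**Figure D3:**
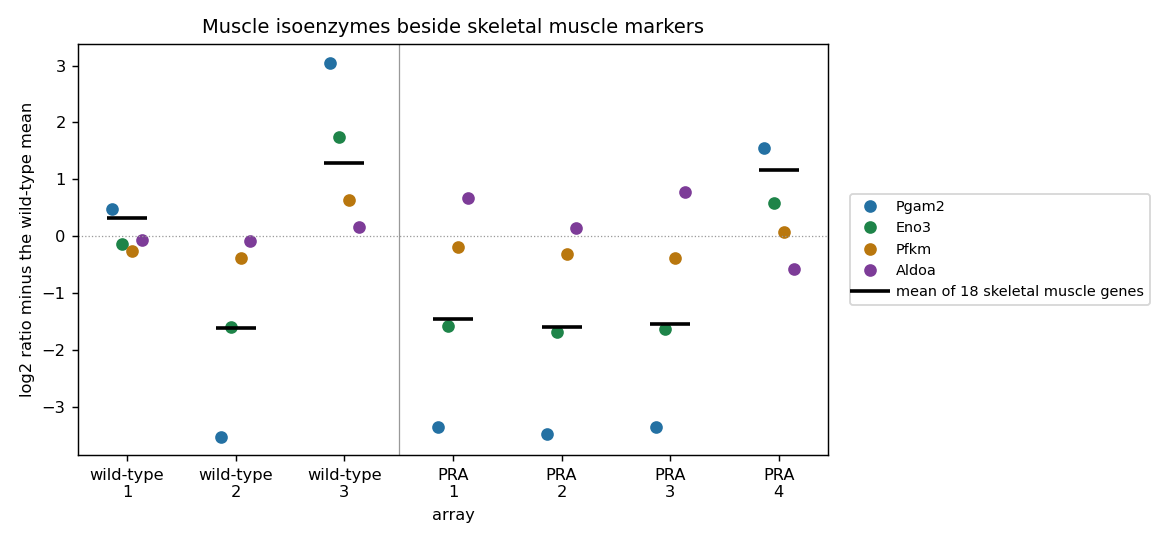
Log2 ratio minus the wild-type mean on each array for Pgam2, Eno3, Pfkm and Aldoa (points) and for the mean of 18 skeletal muscle markers (black bars, not error bars). Pgam2, Eno3 and the bars are high on wild-type replicates 1 and 3 and PRA replicate 4, and Aldoa is lowest on PRA replicate 4.

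The PFKFB enzymes make and break fructose 2,6-bisphosphate, the main activator of phosphofructokinase. Pfkfb3, the strongly kinase-active form, was 4.71 ± 0.21 above the reference in wild-type (SD, n = 3) and 4.25 ± 0.63 in PRA glands (SD, n = 4), a log2 fold change of -0.46. PRA replicate 1 was the highest array at 5.13 and PRA replicates 2 and 3 the lowest at 3.79 and 3.77, and without PRA replicate 1 Pfkfb3 was called lower at an unadjusted p under 0.05 and 1.5-fold (adjusted p = 0.494 from limma). Pfkfb4 differed by -0.38, with 0.67 to 1.37 in wild-type and 0.37 to 0.70 in PRA glands. Pfkfb2 differed by -0.11 (0.64 to 0.86 and 0.43 to 0.79) and Pfkfb1 by 0.06 (2.66 to 3.21 and 2.80 to 3.24). A second Pfkfb1 probe gave -0.69 with no overlap. Its Cy3 reference was well above background on no array, its Cy5 difference was 0.08 and its Cy3 difference 0.78.

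Probes of 1 gene did not always give 1 direction. Of 21 genes with more than 1 tested probe, 12 had all probes on the same side of 0 and 9 did not. The widest gaps were in Tkt, from -0.60 to 1.22, in Pfkfb2, from -0.34 to 0.77, and in Pfkfb3, from -0.46 to 0.52. For the Tkt probe at -0.60 the Cy3 reference was well above background on no array. For the Pfkfb2 probe at 0.77 and the Pfkfb3 probe at 0.52 it was so on only 2 of the 7. In Cy5 alone the same ends were 0.30 and 0.89 for Tkt, -0.58 and 0.49 for Pfkfb2, and -0.51 and -0.10 for Pfkfb3. Counting all 74 probes, 4 were called at P under 0.05 and 1.5-fold (5.41%, against 4.53% of all probes). Of these, both Rpia probes were higher, and the dimmer Tkt and second Pfkfb1 probes were lower. Neither of the lower probes had a Cy3 reference well above background on any array. In Cy5 alone they were higher, by 0.30 for Tkt and 0.08 for Pfkfb1. The dimmer Tkt probe was kept through its 3 wild-type arrays, with 2 of 4 PRA arrays well above background. Genotypes did not overlap for 6 of the 74 probes (8.11%, against 9.95%), which adds a probe of Tpi1 and a probe of Pfkfb2 to the 4 called.

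The 34 genes varied more among PRA than among wild-type glands. The PRA SD was the larger for 25 of 34 (73.5%), against 52.7% of all genes, and the median SD was 0.20 in wild-type and 0.46 in PRA glands, against 0.23 and 0.25 over all genes. PRA replicate 3 was the highest array for 13 of the 34 (38.2%, against 13.6% of 22470 genes with a value on every array) and PRA replicate 1 for 11 (32.4%, against 18.6%). PRA replicate 4 was the lowest for 15 (44.1%, against 16.2%), among them Hk2, Gpi1, Aldoa, Gapdh, Pgk1, Pgam1, Eno1, Ldha, Slc16a1, G6pdx, Pgls, Pgd, Rpe, Tkt and Taldo1. Rpia was the pentose phosphate gene missing from that set. The median deviation from the 7-array mean of a gene was 0.32 on PRA replicate 1 and 0.22 on PRA replicate 3, and it was -0.31 on PRA replicate 4. These are descriptions of the arrays and carry no test.

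**Figure D4:**
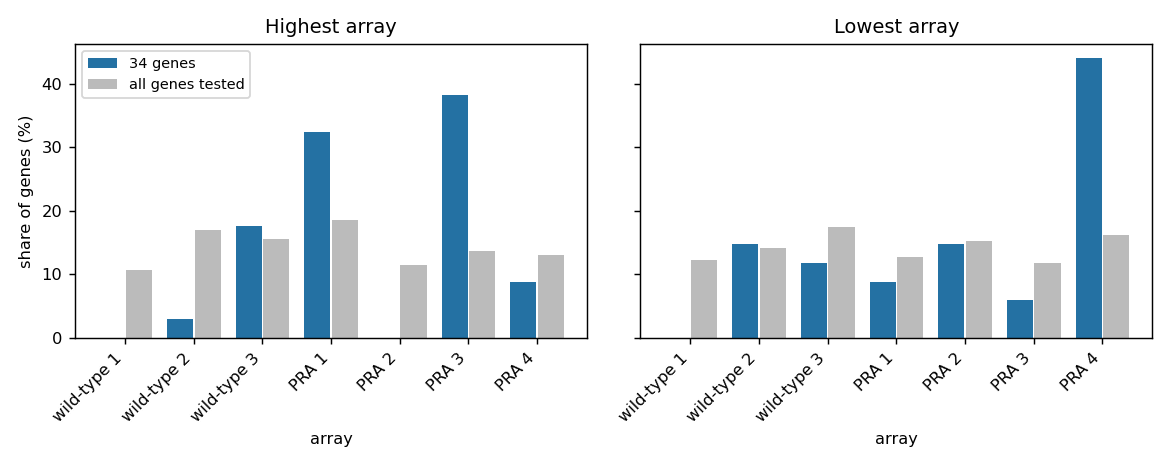
Share in percent of the 34 genes (blue) and of all genes tested (grey) for which each array had the highest (left) or the lowest (right) log2 ratio; bars start at 0 and have no error. PRA replicates 1 and 3 hold the highest value for 32.4% and 38.2% of the 34 genes, and PRA replicate 4 holds the lowest for 44.1%.

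Without PRA replicate 4, 5 of 34 genes were called and all were higher: Tkt, Eno1, Pgd, Ldhb and Rpia (14.7%, against 6.27% of all genes). Genotypes then did not overlap for 11 of 34 (32.4%, against 18.9%). Of these, Tkt, Eno1, Gpi1, Pgls, Slc2a4, Pgd, Pgam1, Ldhb and Rpia were higher, and Slc2a1 and Pfkfb4 lower. The median log2 fold change was 0.26 in place of 0.14. Still none passed the limma test after Benjamini-Hochberg adjustment (lowest adjusted p = 0.192, Rpia). PRA replicate 4 was singled out because it stood apart in these same genes, as the lowest array for 15 of 34. Leaving it out raises the PRA mean of those genes by that choice, which was not made on all genes. The shares of the 34 without it are therefore a description and no test. With any other array left out, Rpia was called, alone except without PRA replicate 1, when Pfkfb3 was called too. All genes then gave 4.86%, 4.24% and 4.34% without wild-type replicates 1, 2 and 3, and 4.36%, 4.11% and 3.59% without PRA replicates 1, 2 and 3.

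**Figure D5:**
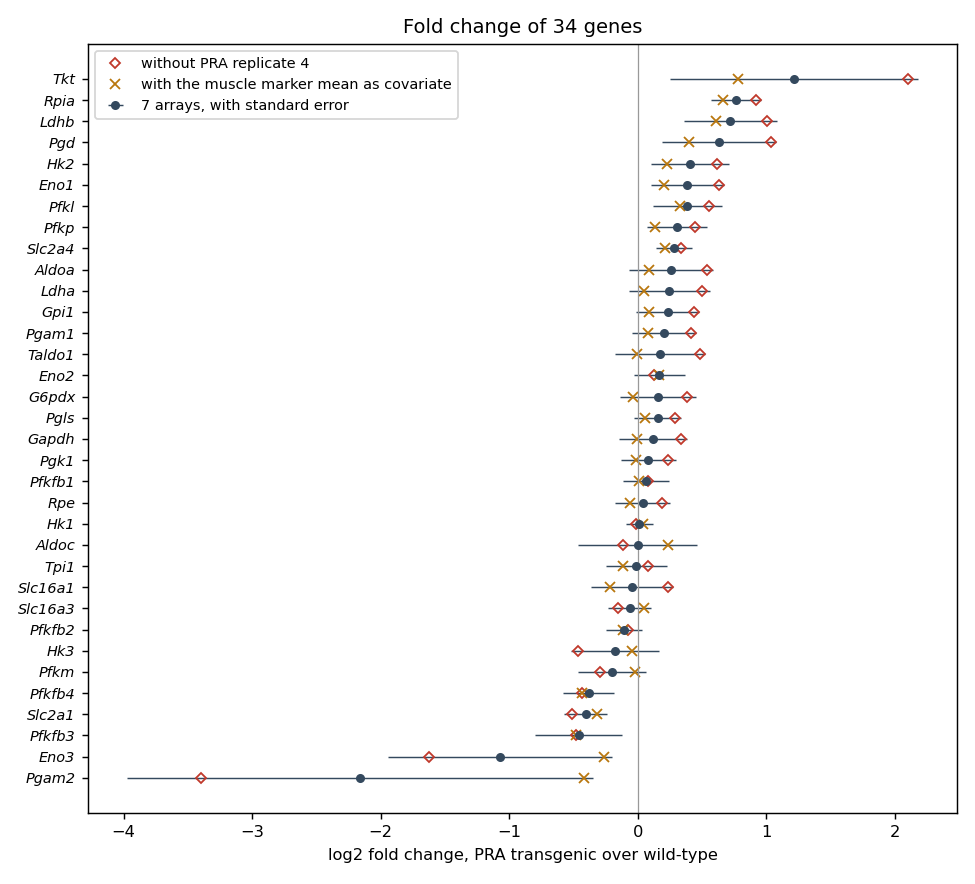
Log2 fold change of PRA over wild-type for the 34 genes, with all 7 arrays (dots, bars are the standard error from limma), without PRA replicate 4 (open diamonds) and with the muscle marker mean as covariate (crosses). Tkt goes from 1.22 to 2.10 without PRA replicate 4, Pgam2 from -2.16 to -0.42 with the covariate, and Rpia stays between 0.66 and 0.92.

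The 250 bases before the start of 6 genes are shown, since Rpia, Tkt and Ldhb were among the genes high together on PRA replicates 1 to 3, Slc2a1 went the opposite way and Pgam2 and Eno3 followed the muscle markers. The sequences are those of RefSeq on GRCm38.p6, in the direction of the gene. Capitals mark the letters GGGCGG, known as the GC box, and CCAAT, which lies in many promoters. They also mark the E-box CACGTG and the hypoxia response core ACGTG, which every E-box of this kind contains. Each motif was searched on both strands, so that the capitals may also hold the reverse complement.
Rpia: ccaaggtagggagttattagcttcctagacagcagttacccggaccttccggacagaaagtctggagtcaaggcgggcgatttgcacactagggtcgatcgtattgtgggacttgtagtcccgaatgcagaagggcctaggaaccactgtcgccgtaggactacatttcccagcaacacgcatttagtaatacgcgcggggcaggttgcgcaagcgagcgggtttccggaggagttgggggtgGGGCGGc
Tkt: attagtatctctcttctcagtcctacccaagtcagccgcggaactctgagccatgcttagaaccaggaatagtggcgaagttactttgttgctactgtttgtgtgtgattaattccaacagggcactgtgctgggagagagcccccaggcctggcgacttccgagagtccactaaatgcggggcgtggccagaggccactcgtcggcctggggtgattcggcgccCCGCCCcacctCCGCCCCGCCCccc
Ldhb: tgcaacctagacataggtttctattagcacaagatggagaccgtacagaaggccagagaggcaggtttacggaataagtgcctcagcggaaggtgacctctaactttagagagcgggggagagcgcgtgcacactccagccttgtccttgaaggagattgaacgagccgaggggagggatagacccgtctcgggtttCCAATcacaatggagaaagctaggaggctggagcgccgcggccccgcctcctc
Slc2a1: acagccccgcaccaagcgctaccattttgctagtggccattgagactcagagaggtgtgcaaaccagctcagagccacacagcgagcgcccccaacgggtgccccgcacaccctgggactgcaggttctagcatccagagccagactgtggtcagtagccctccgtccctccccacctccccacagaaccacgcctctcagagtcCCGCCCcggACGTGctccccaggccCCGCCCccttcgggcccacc
Pgam2: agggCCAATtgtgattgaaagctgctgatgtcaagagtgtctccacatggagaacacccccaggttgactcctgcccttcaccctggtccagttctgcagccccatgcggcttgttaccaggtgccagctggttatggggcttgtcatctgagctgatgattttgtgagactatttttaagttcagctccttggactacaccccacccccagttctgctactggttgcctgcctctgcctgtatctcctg
Eno3: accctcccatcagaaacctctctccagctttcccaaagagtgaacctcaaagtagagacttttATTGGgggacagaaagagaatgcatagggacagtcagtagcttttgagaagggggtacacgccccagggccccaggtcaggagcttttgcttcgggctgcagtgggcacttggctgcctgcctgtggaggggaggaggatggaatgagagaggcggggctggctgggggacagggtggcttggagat
Rpia is at chr6:70792176-70792425 on the minus strand, Tkt at chr14:30548881-30549130 on the plus strand and Ldhb at chr6:142507958-142508207 on the minus strand. Slc2a1 is at chr4:119108495-119108744 on the plus strand, Pgam2 at chr11:5803797-5804046 on the minus strand and Eno3 at chr11:70656926-70657175 on the plus strand.

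Rpia had 1 GC box, Tkt 3 and Slc2a1 2, whereas Ldhb, Pgam2 and Eno3 had none and 1 CCAAT each. Slc2a1 was the only gene of the 6 with ACGTG. Promoters were listed for 34 of the 35 genes, all but Slc2a4, in 52 entries among 32851. GGGCGG was present in 50.0% of the 52 and in 32.7% of all promoters. CCAAT was in 32.7% and 33.8%, ACGTG in 30.8% and 16.6%, and CACGTG in 9.62% and 6.02%. The palindromic progesterone response element was in none of the 52 and in 0.387% of all. The median GC content was 57.2% against 52.4%. These matches describe the letters in this window and were not tested.

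Among 70 further genes of sugar metabolism that were tested, 4 were called (5.71%, against 4.06% of all genes), 1 higher and 3 lower. Of 18 other glycolytic and pentose phosphate enzymes none was called. Pdk4, the kinase that shuts the pyruvate dehydrogenase complex, read 4.94, 4.92 and 5.22 in wild-type and 4.40, 4.02, 3.98 and 4.58 in PRA glands. All PRA glands lay below the wild-type, at a log2 fold change of -0.78 with a standard error of 0.19 (limma adjusted p = 0.379). Ddit4, a stress-induced inhibitor of mTORC1, read -1.59, -1.15 and -1.02 in wild-type and -2.52, -2.47, -2.43 and -1.48 in PRA glands. PRA replicate 4 lay inside the wild-type range, and the log2 fold change was -0.97 (limma adjusted p = 0.425).

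Fbp2, the muscle fructose bisphosphatase, read 2.17, 3.09 and 4.66 in wild-type and 1.80, 2.19, 1.21 and 1.66 in PRA glands, a log2 fold change of -1.59 with overlap. Slc16a8, a monocarboxylate carrier, read 0.32, 0.24 and -0.06 in wild-type and 1.20, 0.46, 0.73 and 0.65 in PRA glands, a log2 fold change of 0.59 without overlap. Their Cy3 reference was well above background on only 1 and 3 of the 7 arrays. In Cy5 alone the differences were -0.37 and 0.05, and in Cy3 1.23 and -0.54. Of 17 genes of gluconeogenesis and glycogen, 14 other carriers and 21 hypoxia and sugar-sensing regulators, none besides these 4 was called.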

How the data were processed

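The authors deposited the Feature Extraction output of each array (version 12.0 per the submitters' processing notes), with processed intensity values that the software had background-subtracted and dye-normalized. The deposited series table holds log2 ratios, which equalled the log2 ratio of those intensities less the 7-array median of each probe (correlation of at least 0.9999, array medians -0.02 to 0.03). The dye direction follows the labels, and no array was dye-swapped.

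Here log2(Cy5/Cy3) was taken from the processed intensities, without control and outlier spots, averaged per probe, and fitted with limma 3.58.1 in R 4.3.3 (lmFit, eBayes), with Benjamini-Hochberg adjustment over all 34288 probes. The brightest tested probe stood for a gene. Thresholds were P under 0.05 with 1.5-fold, and an adjusted p under 0.05. Every array value was given for genes of the 35 at P under 0.05 or without overlap, the 6 largest differences and the muscle isoenzymes, and for other pathway genes called. The rest were given by range or mean. Isoenzyme pairs used exact permutation over 35 splits. Both tests were tested on simulated data. Alternatives were normexp with loess, the series table, no or a stricter filter, quantile normalization, Cy5 without Cy3, an intensity trend, the methods' t-test, array weights, a replicate block, the muscle covariate, the median over probes and each array left out. The genes, lists and tests were chosen with earlier results of these data known. Each sample is 1 animal. The number of arrays limits the precision. Probe positions are mm9.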

Additional observations from a re-analysis of the deposited data

Results flagged for a closer look

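Among 55 gene or list values checked in the 4 PRA glands, 5 had a gland far from the rest by Dixon's ratio (the gap to the nearest gland over the whole range), where about 2.75 would be so by chance, since chance gives about 1 in 20. It was PRA replicate 4 each time.

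Pgam2 had a ratio of 0.974, with 0.87 on PRA replicate 4 against -4.16 to -4.03 on the other PRA arrays. Eno3 had a ratio of 0.954, with -0.67 against -2.93 to -2.83. The mean of the skeletal muscle markers had a ratio of 0.948, with 2.57 against -0.19 to -0.05. Hk3 had a ratio of 0.932, with 0.31 against -0.88 to -0.80. The mean of the 7 fibroblast markers had a ratio of 0.944, with 2.42 against 1.92 to 1.95, and the wild-type glands ran from 1.87 to 2.40. In the wild-type glands the muscle mean ran from -0.20 to 2.70. These values share an array, and what sets it apart was not tested. Since Pgam2 and Eno3 followed the muscle markers, the 5 are not separate values, so 5 against 2.75 cannot show whether there is an excess.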

How the results depend on the processing

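The number of sugar genes at P under 0.05 and 1.5-fold, 1 with all arrays, was 2 without the filter on dim probes (Rpia and Pklr, the latter not well above background), 2 with array weights (Ldhb and Rpia) and 1 to 5 with 1 array left out. None of the 34 passed an adjusted p under 0.05 under any of 19 alternatives, 19 to 24 genes were higher, and their median ran from 0.03 to 0.26. Rpia kept its direction and an unadjusted p under 0.05 in all 19 (0.65 to 0.92). Slc2a1 was lower in all 19 and had an unadjusted p under 0.05 in 11. Pfkm, at -0.20, ran from -0.39 to 0.12 with 1 array left out and was above 0 only without wild-type replicate 3. Over all probes 1552 of 34288 passed. The count was 328 with normexp and loess, 2031 with array weights and 996 by the methods' t-test. It was 3367 of 56605 without the filter and 468 of 24664 with both channels above background. With 1 array left out it ran from 1382 to 2334. The cause of these gaps was not tested. The replicate numbers did not pair the animals (correlations of 0.10, -0.30 and 0.04). With the replicate block 5 of 34 sugar genes and 2444 of 34288 probes passed. Since PRA replicate 4 has no partner, the fold changes of the block are those without that array. For the isoenzyme pairs, no exact test with an array left out can reach 0.05, so those fits say nothing of stability. A block for the slide was not possible with 1 slide.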
